A study of Homo sapiens with 6 samples.

Results

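Transcript levels of 9 chemokine genes were followed in HaCaT, a spontaneously immortalized line of human keratinocytes that serves as a model of the epidermis. The genes are the neutrophil-attracting CXC chemokines CXCL1, CXCL2, CXCL3, CXCL5, CXCL6 and CXCL8, together with CCL20, CXCL14 and CXCL16. They were chosen by name, and each matched 1 row of an expression table of 20035 genes. Poly(A) RNA was sequenced in 3 libraries of cells treated with palmatine, a protoberberine plant alkaloid, and in 3 control libraries whose treatment label is none. All 6 libraries are of wild-type HACAT cells, as the labels spell the line. The series describes an IL-17-stimulated, psoriasis-like model, but no sample label says which libraries received IL-17. Palmatine therefore cannot be told apart from IL-17 if the controls received none. Dose, time and whether replicates were separate cultures are not given in the labels, so the p-values measure only the spread between these libraries, which may be technical.

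Chemokines are small secreted proteins that guide leukocytes along concentration gradients. CXC chemokines that carry the Glu-Leu-Arg motif before their first cysteines (CXCL1, CXCL2, CXCL3, CXCL5, CXCL6 and CXCL8) attract neutrophils through the receptors CXCR1 and CXCR2. CCL20 attracts CCR6-bearing T helper 17 cells and dendritic cells, CXCL16 is a membrane-anchored ligand of CXCR6 that proteases shed, and CXCL14 is a chemokine made constitutively by normal epidermis. In psoriatic epidermis IL-17 raises CXCL1, CXCL8 and CCL20, in part through the NF-kB system and in part by stabilizing the transcripts, and neutrophils collect in the upper layers of the lesion.

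The 6 Glu-Leu-Arg genes lie in 1 cluster on chromosome 4, which spans 359 kb from position 73740519 to 74099196 in the table's coordinates. In order of position they are CXCL8, CXCL6, CXCL1, CXCL5, CXCL3 and CXCL2, with the first 3 on the plus strand and the last 3 on the minus strand. CCL20 lies on chromosome 2 (positions 227805739 to 227817564), CXCL14 on chromosome 5 (135570679 to 135579279) and CXCL16 on chromosome 17 (4733533 to 4739928). The table names no genome build, and its positions overlap the GRCh38 annotation of GENCODE 29 at the same locus and strand for 99.9% of shared identifiers.

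Short windows around an NF-kB motif upstream of the RefSeq transcription starts are shown because nearly identical 30-base windows stood beside very different transcript levels within the cluster. Promoters from RefSeq (GRCh38.p14, 250 bases before to 50 after the start) were found for 8 of the 9 genes, all except CXCL16. Each line gives 30 bases on the gene's strand, 5′ to 3′, with the match to an NF-kB motif in capitals.
CXCL1: ctggaactccGGGAATTTCCctggcccggg
CXCL2: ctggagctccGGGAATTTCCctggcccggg
CXCL3: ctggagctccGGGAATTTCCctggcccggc
CXCL5: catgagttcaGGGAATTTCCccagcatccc
CXCL6: cctgagttcaGGGAATTTCCccagcatccc
CXCL8: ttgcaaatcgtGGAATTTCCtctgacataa
CCL20: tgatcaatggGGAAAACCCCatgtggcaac
These windows lie at chr4:73869304-73869333 for CXCL1, chr4:74099254-74099283 for CXCL2, chr4:74038749-74038778 for CXCL3, chr4:73998749-73998778 for CXCL5, chr4:73836578-73836607 for CXCL6, chr4:73740467-73740496 for CXCL8 and chr2:227813753-227813782 for CCL20. The windows of CXCL1 and CXCL2 differed at 1 of 30 bases, those of CXCL2 and CXCL3 at 1, and those of CXCL6 and CXCL5 at 1. The CXCL1 and CXCL6 windows differed at 12 of 30. All windows lie upstream of RefSeq starts, but those of CCL20 and CXCL3 fall inside the table's gene limits. These limits are 227805739 to 227817564 for CCL20 and 74036589 to 74038807 for CXCL3.

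The NF-kB motif GGAATTTCC preceded by a further G, searched on both strands, was in the promoters of CXCL1, CXCL2, CXCL3, CXCL5 and CXCL6 and in 0.145% of the 35116 promoters of the same length. CXCL8 held GGAATTTCC alone, which the longer motif contains and which was in 0.461% of promoters. A more open motif, GGG then any 2 bases then TTTCC, present in 1.91% of promoters, matched CCL20 on the opposite strand and the same 5 genes as the long motif. Matches began between 78 and 91 bases upstream of the start. An AP-1 motif, TGANTCA (7.71% of promoters), was found in CXCL8 and CXCL14, and the TATA box letters TATAAA (11.5%) in CXCL8 and CCL20. The C/EBP letters TTGCNNAA (10.5%) matched CXCL2 alone among the 8. These matches describe the sequence and are not measured binding sites, and a site that departs from the letters searched is not counted. A longer stretch is given for the most abundant pair of the cluster, 82 bases each, at chr4:73869248-73869329 for CXCL1 and chr4:73740424-73740505 for CXCL8, with NF-kB and AP-1 motifs in capitals.
CXCL1: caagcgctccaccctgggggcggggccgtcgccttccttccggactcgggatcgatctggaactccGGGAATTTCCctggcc
CXCL8: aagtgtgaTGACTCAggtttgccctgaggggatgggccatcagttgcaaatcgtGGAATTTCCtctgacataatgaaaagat

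The libraries held 12908646 to 17218171 counts each, with Pearson correlations of log2 CPM between 0.985 and 0.996 across genes. The label of the line fits its markers: all 12 keratinocyte markers were tested, with summed levels of 3429 to 3886 FPKM in palmatine and 3510 to 3649 FPKM in control libraries. FPKM are counts scaled to gene length and library total, so levels can be compared between genes as far as the table's gene lengths hold. No T-cell marker of 8 was tested, with sums of 0.163 to 0.221 FPKM in palmatine and 0.0195 to 0.158 FPKM in control libraries, and CD3D and CD2 at 0 in all. Of 9 neutrophil and macrophage markers only CD14 was tested, with FCGR3B, MPO, ELANE and AIF1 at 0 and sums of 1.87 to 1.90 FPKM in palmatine and 1.92 to 2.27 FPKM in control libraries. Fibroblast markers summed to 0.501 to 0.866 FPKM in palmatine and 0.406 to 0.670 FPKM in control libraries, endothelial markers to 1.00 to 1.34 and 1.06 to 1.10 FPKM, and melanocyte markers to 0.700 to 0.790 and 0.566 to 0.735 FPKM, each with the palmatine range first. In bulk RNA, fewer cells of a type and less RNA per cell cannot be told apart.

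No chemokine of the group passed the test between palmatine and control. Of the 9, 7 passed the filter on low counts and were tested, and CXCL2 and CXCL14 were too low. With edgeR's quasi-likelihood test, 0 of the 7 had an adjusted p of at most 0.05, where 0.0405% of all 12356 tested genes did (5 genes, all lower), and 0 of the 7 had an unadjusted p under 0.05, where 9.82% of all tested genes did. DESeq2 and limma-voom likewise called 0 of the 7. Limma on log2(FPKM + 1) called 0 of the 7 and gave 1, CXCL6, an unadjusted p under 0.05, as it did 12.3% of all tested genes. The palmatine and control libraries lay apart in CPM (counts scaled to the library total with normalization factors) in 0 of the 7, against 12.4% of all tested genes. The median log2 fold change of the 7 was 0.03, beside -0.002 over all tested genes, with 4 values above 0 and 3 below.

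The levels spanned a wide range. CXCL16 averaged 24.5 ± 1.30 FPKM over the 6 libraries, CXCL1 21.2 ± 1.17, CXCL8 19.6 ± 1.46, CXCL6 8.19 ± 0.740, CCL20 2.08 ± 0.388, CXCL3 0.619 ± 0.109, CXCL5 0.403 ± 0.0779, CXCL2 0.203 ± 0.145 and CXCL14 0.0639 ± 0.0663 FPKM (SD, n = 6 libraries). CXCL16 stood above 91.3% of all genes in the table and CXCL14 above 33.8%. The ranges of CXCL16 and CXCL1 overlapped, although CXCL16 was above CXCL1 within each of the 6 libraries. In FPKM, CXCL1 was above CXCL8 in 5 of 6. That order rests on the table's gene lengths, 1362 bases for CXCL1 and 2588 for CXCL8. In CPM, which is not divided by length, CXCL8 averaged 48.5 in palmatine and 53.15 in control libraries, and CXCL1 29.2 and 28.6. CXCL8 lay clear of CXCL6 by 2.39 times, CXCL6 of CCL20 by 3.94 times and CCL20 of CXCL3 by 3.36 times, with no overlap of the 6 libraries. From CXCL3 downward the ranges of neighbours overlapped again.

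**Figure D1:**
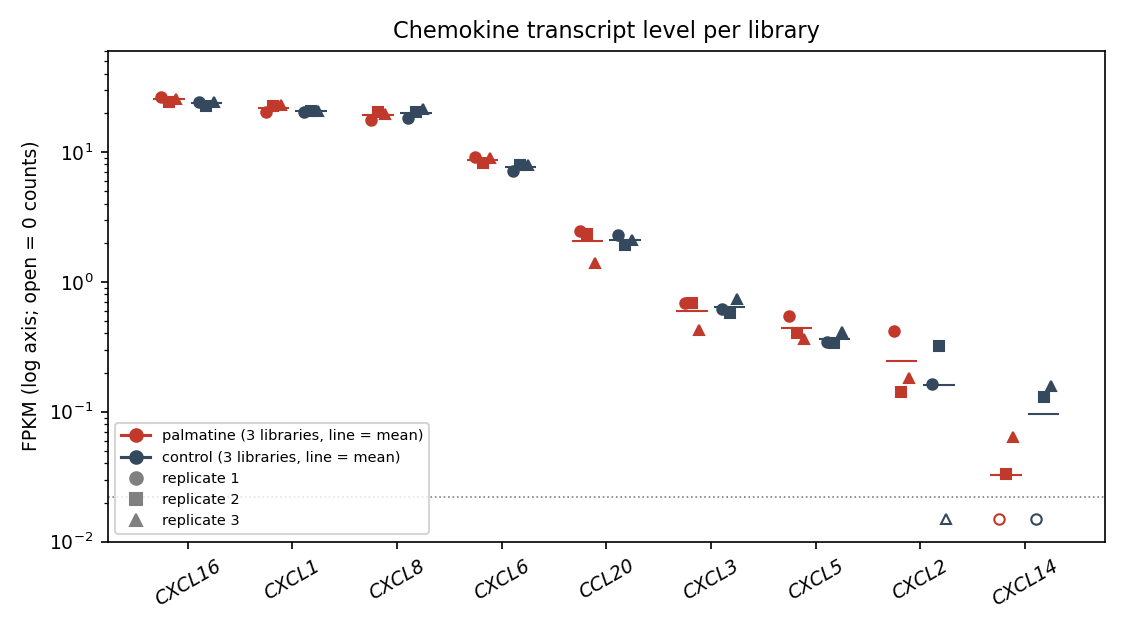
FPKM of each chemokine in every library on a log axis, palmatine left and control right of each pair, with group means as lines, replicates as symbols and libraries with 0 counts as open symbols at the bottom. Levels fall from about 24.5 FPKM for CXCL16 to 0.0639 FPKM for CXCL14. The groups overlap in FPKM for every gene except CXCL6, whose palmatine libraries start at 8.15 FPKM, above the highest control library at 7.97 FPKM. In CPM the CXCL6 groups overlap. With library size alone, without normalization factors, the median log2 fold change of all tested genes was 0.06, against -0.002 with them. The share of all genes whose groups lie apart in FPKM was not counted.

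Among the Glu-Leu-Arg chemokines, 3 genes made up nearly all of the transcript pool. Their summed level was 51.0 ± 2.14 FPKM in palmatine and 49.4 ± 2.30 FPKM in control libraries (SD, n = 3 each). CXCL1 supplied 42.9% ± 1.02 of the sum in palmatine and 41.6% ± 1.61 in control libraries, CXCL8 37.4% ± 1.41 in palmatine and 40.6% ± 1.43 in control libraries, and CXCL6 17.1% ± 1.55 in palmatine and 15.5% ± 0.313 in control libraries (SD, n = 3 each). The CXCL8 share was 36.1%, 38.9% and 37.3% in palmatine replicates and 39.04%, 40.8% and 41.9% in control replicates, so each palmatine library lay below each control library; this contrast was noticed in the values and was not tested. CXCL2, CXCL3 and CXCL5 each stayed at or below 1.43% of the sum in every library. All these shares are of FPKM and so rest on the table's gene lengths. Genes with nearly the same window around the NF-kB motif differed greatly in level. The mean FPKM of CXCL1 over the 6 libraries was 104 times that of CXCL2 and 34.3 times that of CXCL3, and that of CXCL6 was 20.3 times that of CXCL5. The CXCL1 to CXCL3 ratio ran from 28.3 to 53.6 over the 6 libraries and the CXCL6 to CXCL5 ratio from 16.6 to 24.5. The CXCL1 to CXCL2 ratio is imprecise, as CXCL2 had only 0 to 10 counts per library. Of all 50-base stretches in the GENCODE 29 transcripts of CXCL2, 12.5% also occur in CXCL1 or CXCL3, against 6.01% for CXCL3 and 4.81% for CXCL1. For 100-base stretches the shares are 5.0% for CXCL2, 3.27% for CXCL3 and 0% for CXCL1. Counts from these shared stretches can depend on how shared reads were counted, which no source used here gives. The effect on the levels was not tested.

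**Figure D2:**
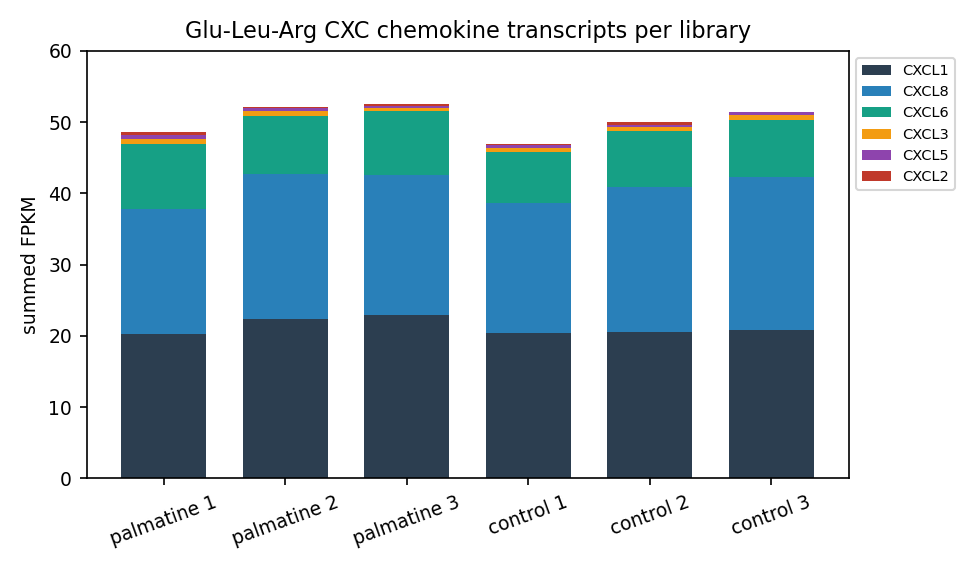
Summed FPKM of the 6 Glu-Leu-Arg chemokine genes in each library, palmatine libraries left and control libraries right, with each gene's share in its own colour. The bars reach 46.9 to 52.5 FPKM, and CXCL1, CXCL8 and CXCL6 fill almost all of each bar.

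CXCL1 (ENSG00000163739, chromosome 4, positions 73869393 to 73871308, plus strand), a growth-regulated chemokine that draws neutrophils through CXCR2, was at 20.3, 22.4 and 23.0 FPKM in palmatine replicates 1 to 3 and at 20.4, 20.5 and 20.8 FPKM in control replicates 1 to 3. The control values lay close together and inside the palmatine range. The CPM level was 29.2 ± 2.23 in palmatine and 28.6 ± 0.504 in control libraries (SD, n = 3 each). The log2 fold change of palmatine over control was 0.03 with a standard error of 0.0836 (edgeR adjusted p = 0.887), and its 95% interval covers folds from 0.896 to 1.16.

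CXCL8 (ENSG00000169429, chromosome 4, positions 73740519 to 73743716, plus strand), also called interleukin-8 and the main ligand of both CXCR1 and CXCR2, was at 17.5, 20.2 and 19.6 FPKM in palmatine replicates and at 18.3, 20.4 and 21.5 FPKM in control replicates. Palmatine replicate 1 was the lowest library and control replicate 3 the highest, with the others interleaved. CPM averaged 48.5 ± 4.21 in palmatine and 53.15 ± 4.71 in control libraries (SD, n = 3 each). The log2 fold change was -0.13 ± 0.0946 (SE, edgeR adjusted p = 0.522, the smallest of the 7), with a fold interval from 0.787 to 1.06. Relative to CXCL1 within the same library, CXCL8 stood at FPKM ratios of 0.864, 0.903 and 0.853 in palmatine and 0.899, 0.995 and 1.04 in control libraries, and the groups overlapped.

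CXCL6 (ENSG00000124875, chromosome 4, positions 73836640 to 73849064, plus strand), a granulocyte chemotactic protein that acts on CXCR1 and CXCR2, was at 9.11, 8.15 and 8.93 FPKM in palmatine replicates and at 7.10, 7.87 and 7.97 FPKM in control replicates. On this scale the palmatine libraries lay above the control libraries, but in CPM palmatine replicate 2, at 16.4, fell below control replicate 3, at 16.8, so the groups overlapped. FPKM averaged 8.73 ± 0.510 in palmatine and 7.65 ± 0.479 in control libraries (SD, n = 3 each). The log2 fold change was 0.13 ± 0.0936 (SE, edgeR adjusted p = 0.533), with a fold interval from 0.944 to 1.26. A same-strand pseudogene, PPBPP1, overlaps CXCL6 in GENCODE 29.

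CXCL16 (ENSG00000161921, minus strand), the CXCR6 ligand, was at 26.3, 24.1 and 25.5 FPKM in palmatine replicates and at 24.2, 22.5 and 24.4 FPKM in control replicates. The groups overlapped, and the highest and lowest libraries differed by 1.10 times in CPM. The log2 fold change was 0.03 ± 0.0698 (SE, edgeR adjusted p = 0.839), with the narrowest fold interval of the 7, from 0.918 to 1.14. MED11 overlaps CXCL16 on the opposite strand, and no source used here gives the strand setting of the counting.

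CCL20 (ENSG00000115009, plus strand), the CCR6 ligand, was at 2.48, 2.32 and 1.39 FPKM in palmatine replicates and at 2.28, 1.92 and 2.09 FPKM in control replicates. Palmatine replicate 3 was the lowest library and palmatine replicate 1 the highest, so the control range lay within the palmatine range. Counts ran from 35 to 68 per library. The CPM coefficient of variation was 27.9% in palmatine libraries, where counting alone gives 13.7%, and 8.38% in control libraries, where counting gives 14.7%. The log2 fold change was -0.08 ± 0.219 (SE, edgeR adjusted p = 0.884), with a fold interval from 0.673 to 1.33. Without palmatine replicate 3 the value was 0.13.

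CXCL3 (ENSG00000163734, chromosome 4, positions 74036589 to 74038807, minus strand), a close relative of CXCL1, was at 0.681, 0.684 and 0.429 FPKM in palmatine replicates and at 0.615, 0.574 and 0.733 FPKM in control replicates. Palmatine replicate 3 was the lowest library here too, and the groups overlapped. With 15 to 26 counts per library, the log2 fold change was -0.15 ± 0.261 (SE, edgeR adjusted p = 0.799). It was 0.03 without palmatine replicate 3.

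CXCL5 (ENSG00000163735, chromosome 4, positions 73995642 to 73998677, minus strand), an epithelial-derived neutrophil activator, was at 0.548, 0.406 and 0.365 FPKM in palmatine replicates and at 0.342, 0.340 and 0.413 FPKM in control replicates. Palmatine replicate 1 was highest and the other libraries interleaved. With 11 to 23 counts per library, the log2 fold change was 0.22 ± 0.282 (SE, edgeR adjusted p = 0.733), with the widest fold interval, from 0.750 to 1.80. Without palmatine replicate 1 it was 0.03.

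**Figure D3:**
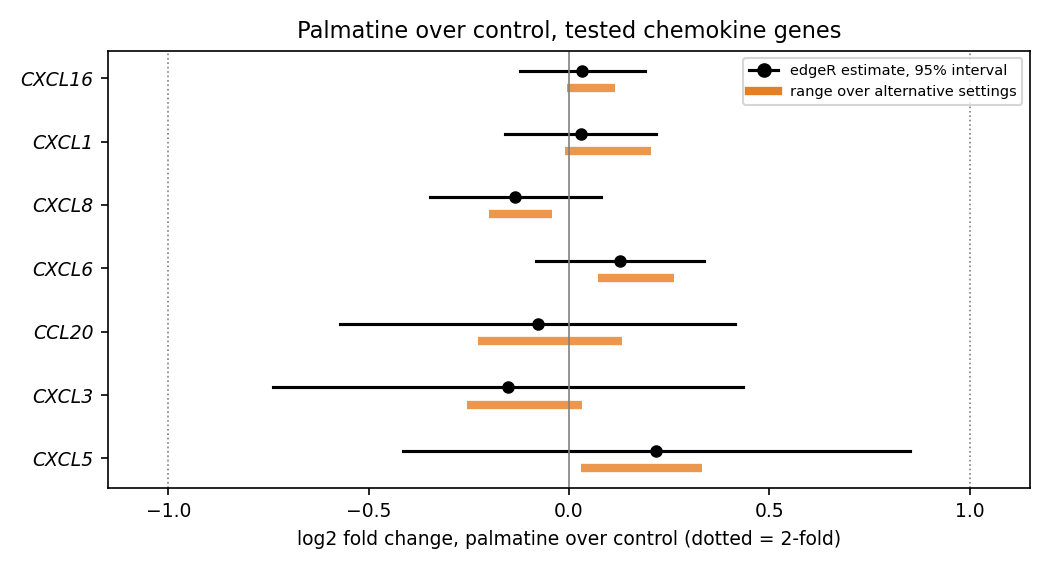
Log2 fold change of palmatine over control for the 7 tested chemokines, with the edgeR estimate and its 95% interval in black and the range over alternative settings as an orange bar. Every interval spans 0 and stays inside the dotted lines of a 2-fold change.

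The precision differed between the genes. The 95% interval excluded a 2-fold change in either direction for 7 of 7 tested chemokines, against 94.9% of all tested genes, and a 1.5-fold change for 5 of 7, against 79.4% of all tested genes. CXCL3 and CXCL5 were the exceptions. The tested chemokines are 1362 to 2793 bases long in the table, and the 1693 tested genes in that range had a median log2 fold change of -0.14, beside 0.02 for the 10359 longer genes. With each library's trend of level on gene length removed, CXCL1 stood at 0.21 and CXCL6 at 0.26 (edgeR adjusted p = 0.471 for both), and these 2 of the 7 had an unadjusted p under 0.05 in that fit, as 10.5% of all tested genes did.

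CXCL2 and CXCL14 were near the detection limit. CXCL2 (ENSG00000081041, chromosome 4, positions 74097040 to 74099196, minus strand), a close relative of CXCL1, had 10, 3 and 4 counts in palmatine and 3, 7 and 0 counts in control replicates. In sum these are 17 counts in palmatine (exact Poisson 95% interval 9.90 to 27.2) and 10 in control libraries (4.795 to 18.4), a scaled ratio of 1.41 with an exact interval from 0.611 to 3.45. CXCL14 (ENSG00000145824, minus strand) had 0, 1 and 2 counts in palmatine and 0, 4 and 4 counts in control replicates, a ratio of 0.3115 with an interval from 0.0532 to 1.30. These intervals cover counting error only and include a ratio of 1, so at this depth neither gene's difference could be detected. For scale, 3 counts equal 0.168 CPM in palmatine replicate 1, where CXCL14 had 0 counts and the exact two-sided Poisson 95% interval reaches 3.69 counts. Libraries at 0 counts entered the sums and ratios as 0. SLC25A48 and an antisense RNA overlap CXCL14 on the opposite strand.

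Transcripts of the receptors CXCR1, CXCR2, CCR6 and CXCR6 were scarce. In a wider list of 11 receptors and decoy receptors, which includes ACKR3, 2 were tested, 0 passed in either direction and 0 had an unadjusted p under 0.05. In this and in each of the 7 lists that follow, DESeq2 and limma-voom also called 0 genes. The scavenger receptor ACKR3 was at 52.6 ± 4.15 FPKM in palmatine and 49.4 ± 2.55 FPKM in control libraries (SD, n = 3 each, edgeR adjusted p = 0.897). CXCR2 was at 0.233 ± 0.0209 FPKM in palmatine and 0.292 ± 0.0967 FPKM in control libraries, and the log2 fold change was -0.38 (SE 0.321, edgeR adjusted p = 0.581). CCR6 and CXCR4 had 0 counts in all 6 libraries, and CXCR1 and CXCR6 at most 1 and 2 counts in a library.

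Other chemokines varied as widely. Of 35, 8 were tested, 0 passed in either direction and 0 had an unadjusted p under 0.05. Log2 fold changes were above 0 in 7 of the 8, against 6132 of all 12356 tested genes, and the median was 0.13. The monocyte attractant CCL2 was the most abundant chemokine of all, at 119 ± 0.995 FPKM in palmatine and 113 ± 2.80 FPKM in control libraries (SD, n = 3 each, edgeR adjusted p = 0.937), 4.75 times the level of CXCL16. CXCL10, an interferon-induced CXCR3 ligand, was at 2.75 ± 0.688 FPKM in palmatine and 2.16 ± 0.389 FPKM in control libraries (edgeR adjusted p = 0.597). CCL28, a mucosal epithelial chemokine, had palmatine libraries above control libraries in CPM and a log2 value of 0.14 (edgeR adjusted p = 0.547). Groups lay apart in CPM in 1 of the 8 tested, against 12.4% of all tested genes. The values for CCL22 and CCL17, ligands of CCR4, were 0.62 and 0.58 (edgeR adjusted p = 0.499 and 0.559). PF4, PF4V1 and PPBP, platelet chemokines inside the chromosome 4 cluster, had 0 counts in every library, and 16 of the 35 had none.

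**Figure D4:**
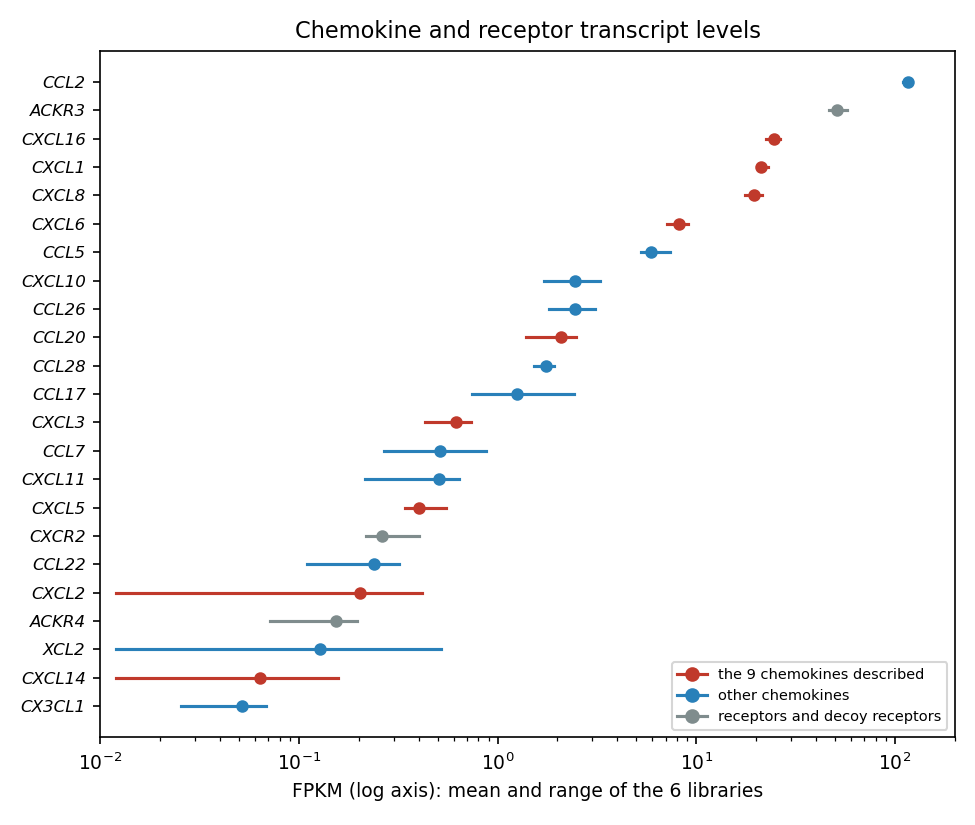
Mean FPKM over the 6 libraries on a log axis, with lines from the lowest to the highest library, for the 9 chemokines and for other chemokines and receptors with at least 5 counts in a library. CCL2 and ACKR3 lie above all 9, and CXCR2 lies at 0.263 FPKM, where lines that reach the left end include libraries at 0.

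Genes flanking the cluster showed no passing change either. Of 10 listed neighbours, which include PF4, PF4V1 and PPBP inside the cluster, 6 were tested and 0 passed in either direction. The tested neighbours all lie outside the cluster. An unadjusted p under 0.05 was found for 1 (AREG), against 9.82% of all tested genes, and the median log2 fold change was -0.12. AREG, which encodes the EGF receptor ligand amphiregulin, had a log2 fold change of -0.30, and BTC, which encodes betacellulin, one of -0.22 (edgeR adjusted p = 0.455 and 0.533). In both, the palmatine libraries lay below the control libraries in CPM. Groups lay apart in 2 of the 6 tested neighbours, against 12.4% of all tested genes. MTHFD2L and EPGN had values of -0.11 and -0.13 (edgeR adjusted p = 0.753 and 0.763).

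Regulators of chemokine transcription were all tested. Of 17, 0 passed in either direction, and the median log2 fold change was -0.01. An unadjusted p under 0.05 was found for 2 (CEBPA and FOSL1, both lower), against 9.82% of all tested genes. CEBPA, a differentiation-linked transcription factor, had the largest shift of the list, at 0.788 ± 0.329 FPKM in palmatine and 1.39 ± 0.112 FPKM in control libraries (SD, n = 3 each, log2 fold change -0.90, edgeR adjusted p = 0.455). FOSL1 and JUNB, components of AP-1, had values of -0.19 and -0.18, and TNFAIP3, a feedback inhibitor of NF-kB signalling, one of 0.20 (edgeR adjusted p = 0.455 for each). NFKBIZ, which encodes the IkB-zeta cofactor of IL-17-induced chemokine genes, was at 12.1 ± 0.606 FPKM in palmatine and 11.2 ± 0.863 FPKM in control libraries (edgeR adjusted p = 0.802).

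Regulators of chemokine mRNA stability showed no passing gene. All 15 were tested, 0 passed in either direction and 0 had an unadjusted p under 0.05. Log2 fold changes were above 0 in 12 of the 15, against 6132 of all 12356 tested genes, and the median was 0.05. RC3H1, ZFP36L1 and ZFP36L2, which promote decay of inflammatory transcripts, had log2 fold changes of 0.24, 0.26 and 0.20 (edgeR adjusted p = 0.455, 0.455 and 0.462), and SRSF1 one of -0.09 (edgeR adjusted p = 0.599). ZC3H12A, the endonuclease regnase-1, was at 22.2 ± 0.587 FPKM in palmatine and 20.95 ± 1.34 FPKM in control libraries (edgeR adjusted p = 0.915). TRAF3IP2, the adaptor that carries IL-17 receptor signals to these transcripts, had a value of -0.01 (edgeR adjusted p = 0.951).

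Of the 7 proteases listed for chemokine shedding and cleavage, 6 were tested and 0 passed in either direction, with a median log2 fold change of 0.11. An unadjusted p under 0.05 was found for 1 (MMP13, higher), against 9.82% of all tested genes. The sheddases of CXCL16, ADAM10 and ADAM17, had values of -0.01 and 0.09 (edgeR adjusted p = 0.947 and 0.605). The collagenase MMP13 was at 75.5 ± 3.85 FPKM in palmatine and 59.2 ± 2.55 FPKM in control libraries without overlap (SD, n = 3 each, log2 fold change 0.29, edgeR adjusted p = 0.455). Groups lay apart in CPM in 1 of the 6 tested proteases, against 12.4% of all tested genes. MMP1 and MMP14 had values of 0.19 and 0.08 (edgeR adjusted p = 0.459 and 0.59).

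Other genes that IL-17 induces in keratinocytes were present at various levels. Of 12, 8 were tested, 0 passed in either direction, 0 had an unadjusted p under 0.05 and the median log2 fold change was -0.09. LCN2, the iron-sequestering lipocalin of neutrophils and epithelia, was at 167 ± 9.20 FPKM in palmatine and 172 ± 6.49 FPKM in control libraries (SD, n = 3 each, edgeR adjusted p = 0.514). S100A7 and SAA1 each had a value of -0.30 (edgeR adjusted p = 0.459 and 0.468) and IL36G one of 0.43 (edgeR adjusted p = 0.476). S100A7 and SAA1 are 486 and 1062 bases long in the table, and the 304 tested genes shorter than 1362 bases had a median log2 fold change of -0.23. DEFB4A, a beta-defensin, had 0 to 3 counts per library, and DEFB4B, also 337 bases long in the table, had 0 in all. How reads matching both genes were counted is not given, so these low counts may not reflect the transcript level.

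Among 10 cytokines that act with neutrophil chemokines, 5 were tested and 0 passed in either direction. An unadjusted p under 0.05 was found for 2 (IL1A and IL1B), against 9.82% of all tested genes. All 5 log2 fold changes were below 0, against 6224 of all 12356 tested genes, with a median of -0.35. IL1B was at 7.40 ± 0.498 FPKM in palmatine and 9.71 ± 0.724 FPKM in control libraries, and IL1A at 9.65 ± 1.23 FPKM in palmatine and 11.8 ± 0.725 FPKM in control libraries (SD, n = 3 each). Their log2 fold changes were -0.45 and -0.35 (edgeR adjusted p = 0.455 for both), and neither pair of groups overlapped in CPM. Groups lay apart in 2 of the 5 tested cytokines, against 12.4% of all tested genes. IL23A and IL6 had values of -0.64 and -0.22 (edgeR adjusted p = 0.455 and 0.495). Both interleukin-1 genes encode inducers of CXCL1, CXCL8 and CCL20 in keratinocytes, and the values of these chemokines are those given above.

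The genes whose levels followed each chemokine most closely over the 6 libraries were found by the root mean square difference of centred log2 CPM, among tested genes of at least 1 FPKM. For CXCL8 they were LAPTM4B, UFD1 and PSMD6 (0.02 each, where CXCL8 itself had an SD of 0.14). For CXCL1 they included DLL1 and CRTAP (0.03 each, SD 0.07). For CXCL6 they were ZNF550, CAP2 and TMEM170A (0.02 to 0.03, SD 0.10) and for CXCL16 HERC4, TSTD2 and FIGNL1 (0.01 each, SD 0.05). The nearest for CCL20 were CAMKMT, TTLL1 and FOXF2, for CXCL3 PHOSPHO2, CCDC61 and ECHDC3, and for CXCL5 RUFY3, NIPAL4 and EEF1AKMT2, at distances of 0.07 to 0.14. No other chemokine was among them, but CXCL2, CXCL3, CXCL5 and CXCL14 averaged under 1 FPKM and so could not be listed. Whether the chemokines follow one another was not tested.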

How the data were processed

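Per the labels' protocols, TRIzol RNA underwent oligo(dT) bead selection before NEBNext Ultra II library preparation. The submitters' processing notes list HISAT2 2.1.0 and HTSeq 0.9.1. No source used here states the genome build, the strand setting or how multi-mapping reads were handled. The authors deposited raw read counts and FPKM per gene, and the deposited FPKM equalled count over length and library total to a tolerance of 1e-05 for 100% of values above 0.

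Libraries were grouped by sample titles. Low genes were removed by filterByExpr (edgeR 4.0.16, minimum count 10), and the rest were scaled with TMM factors and compared by the quasi-likelihood test in R 4.3.3, with p-values two-sided, adjusted by Benjamini-Hochberg over all tested genes and called at 0.05. Intervals are at 95%. Alternatives used DESeq2 1.42.0, limma 3.58.1, other filters, scalings and pseudocounts, a length trend (loess, span 0.3), a replicate block and each library left out. The procedure was tested on simulated data. All replicate pairs differed beyond sampling noise (chi-square per degree of freedom at least 3.13). Count intervals ignore PCR duplication and so cover counting error alone. The chemokines, gene lists and alternatives were chosen with earlier results of these data known. All 9 chemokines were named, along with up to 4 genes per list with the smallest p and the 3 closest patterns per tested chemokine. One gene that this rule picks is not reported here. CCL2, NFKBIZ, ZC3H12A, TRAF3IP2, ADAM10 and the genes given at or near 0 counts were named after their values were seen.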

Additional observations from a re-analysis of the deposited data

How the results depend on the processing

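Over 18 alternative settings, 0 chemokines passed the threshold under any. The count of all genes called lower was 5 in the main analysis and 14 with DESeq2, 8 without a count filter, 9 with the replicate block, 8 with the length trend removed, 9 with that trend removed together with the block, 3 with limma on log2(FPKM + 1) for all genes above 0, and 5 to 6 with 1 library left out. The count called higher was 0, except for 2 with the length trend removed together with the block. Direction changed for CCL20 (log2 fold change 0.083 with the length trend removed, 0.063 with the block added, 0.13 without palmatine replicate 3, and from -0.23 to 0.13 over the libraries left out), CXCL1 (-0.009 without palmatine replicate 3, from -0.009 to 0.091), CXCL3 (0.032 without palmatine replicate 3, from -0.255 to 0.032) and CXCL16 (-0.004 without control replicate 2, from -0.004 to 0.061), and the cause was not tested. CXCL5, CXCL6 and CXCL8 kept their direction under every alternative that included them. CXCL3 and CXCL5 were not tested at a minimum count of 50. The labels link same-numbered libraries only by number, and whether they were paired was not tested. Their deviations from the group means correlated at 0.399, 0.178 and -0.0963 across genes for replicates 1, 2 and 3. The replicate block called 0 chemokines. With it, 2503 genes had an edgeR unadjusted p under 0.05, against 1213 in the main analysis. Of the context lists, MMP13 alone was called, with the length trend removed together with the block. Depth limits CXCL2 and CXCL14, with at most 10 and 4 counts in a library.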
